A study of Homo sapiens with 12 samples.

Results

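The 10 genes described here encode matrix metalloproteinases (MMP1, MMP2, MMP7, MMP14 and MMP15), their tissue inhibitors (TIMP1, TIMP2 and TIMP3), the urokinase plasminogen activator (PLAU) and its receptor (PLAUR). They were chosen by name, with earlier results of these data known, as 10 of the 26475 gene symbols of the deposited table of expected counts. All 10 were found. RNA was measured in PA-1, a human cell line from an ovarian teratocarcinoma, and in SK-OV3, a human cell line from an ovarian adenocarcinoma. Cells of each line received the vehicle DMSO or 5 µM BAY-850, a small-molecule inhibitor of the bromodomain protein ATAD2, for 48 h. Each of the 4 groups had 3 biological replicates, giving 12 libraries. PA-1 cells were grown in DMEM and SK-OV3 cells in RPMI, so line and medium cannot be told apart, and each line stands for a single tumour.

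Matrix metalloproteinases are zinc enzymes that cleave collagens, laminins and other matrix proteins. Most are made as inactive proenzymes, and MMP14 at the cell surface activates the MMP2 proenzyme with the help of TIMP2, while higher amounts of TIMP2 block both. Urokinase, bound to its receptor, turns plasminogen into plasmin, which degrades fibrin and can activate some MMP proenzymes. These systems are studied in ovarian cancer for their part in peritoneal invasion. Only transcript levels were measured here, not enzyme activity.

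RefSeq promoter sequences (GRCh38.p14) were held for 7 of the 10 genes, and MMP1, MMP2 and TIMP2 had none in the table. Those shown belong to the genes with the largest differences in level between the lines among the 7. Each runs 5′ to 3′ on the strand of its gene and ends at the annotated gene start, with capitals marking an AP-1 motif, a TATA motif or a GC box.
MMP7: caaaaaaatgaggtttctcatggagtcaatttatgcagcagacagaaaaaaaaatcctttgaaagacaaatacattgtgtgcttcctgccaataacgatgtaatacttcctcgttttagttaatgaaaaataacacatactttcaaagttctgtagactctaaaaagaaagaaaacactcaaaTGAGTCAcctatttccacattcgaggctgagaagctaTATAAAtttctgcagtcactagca
MMP14: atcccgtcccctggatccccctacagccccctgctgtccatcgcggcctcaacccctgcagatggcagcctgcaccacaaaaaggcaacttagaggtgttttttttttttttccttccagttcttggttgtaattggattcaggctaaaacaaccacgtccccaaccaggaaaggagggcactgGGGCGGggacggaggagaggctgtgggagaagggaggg
TIMP3: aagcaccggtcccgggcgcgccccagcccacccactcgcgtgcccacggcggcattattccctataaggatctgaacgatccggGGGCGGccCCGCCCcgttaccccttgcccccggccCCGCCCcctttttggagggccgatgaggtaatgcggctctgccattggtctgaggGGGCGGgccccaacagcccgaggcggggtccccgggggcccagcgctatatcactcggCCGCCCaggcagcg
The MMP7 sequence lies at chr11:102530754-102530997 on the minus strand, the MMP14 sequence at chr14:22836335-22836556 on the plus strand and the TIMP3 sequence at chr22:32801455-32801700 on the plus strand. All windows were searched on both strands for the letters TGANTCA of AP-1, the site of FOS and JUN proteins, for the TATA motif with the letters TATAAA, and for the GC box with the letters GGGCGG. The MMP7 window held an AP-1 motif (TGAGTCA) at -67 and a TATA motif at -30 from the RefSeq start, and no GC box. The TIMP3 window held 5 GC boxes and the MMP14 window held 1, at -66 from the RefSeq start. Neither held an AP-1 or TATA motif. Each searched window was the 250 bases before the RefSeq start. The printed stretches lack its last 6 (MMP7), 28 (MMP14) and 4 (TIMP3) bases, which lie past the annotated gene start. Over all 35116 promoter windows, 6.57% held the AP-1 motif, 10.7% the TATA motif and 42.6% a GC box. Among the 7 genes, the AP-1 motif was in 2 (MMP7 and PLAUR), the TATA motif in 1 and a GC box in 4. A match describes these letters and was not tested as a site of any factor.

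Library totals ranged from 34544505 to 51840233 expected counts. The SK-OV3 BAY-850 replicate 3 library had the highest total and the fewest genes with a count (15629, compared with 17425 to 18414 in the other 11), and member values that change sign or move by over 1.5 times without it are given both ways. The 8 pluripotency markers summed to 1370–1650 CPM in PA-1 and to 6.48–10.4 CPM in SK-OV3. The 8 epithelial markers summed to 928–1060 CPM in PA-1 and 2900–4440 CPM in SK-OV3. Under DMSO, 7 of the epithelial markers were called higher in SK-OV3 and 1 lower (KRT18, 335 CPM in PA-1 and 266 CPM in SK-OV3). ERBB2 alone had a mean of 2420 CPM in SK-OV3 with DMSO. In bulk RNA, fewer cells that express a gene and less RNA per cell cannot be told apart.

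BAY-850 changed 4 of the 10 genes in SK-OV3 cells at an adjusted p under 0.05, where 20.4% of the 15348 genes tested were called, 10.8% as higher and 9.56% as lower. MMP7, MMP2 and PLAU fell, and MMP1 rose. Only MMP7 and MMP2 passed 1.5-fold. In PA-1 cells, 9 of the 10 genes could be tested and 0 were called by edgeR's quasi-likelihood test, where 7.13% of the 15212 genes tested were called, 4.65% as higher and 2.48% as lower. At an unadjusted p under 0.05, 4 of these 9 genes passed (MMP2, MMP15, TIMP3 and PLAUR), compared with 23.8% of all genes tested, and DESeq2 called 1 of them (TIMP3). By edgeR, the response differed between the lines for 2 of the 10 genes, MMP2 and PLAUR, where 14.5% of 16830 genes were called in the interaction test, 6.70% as higher and 7.77% as lower in SK-OV3 relative to PA-1. Both genes were on the lower side, and DESeq2 also called PLAU there.

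The replicates give a further view of the same changes. In SK-OV3 cells, the 3 BAY-850 libraries did not overlap the 3 DMSO libraries for 7 of the 10 genes, compared with 38.6% of all genes tested, 18.1% higher and 20.5% lower. MMP1, MMP15 and TIMP2 were higher and MMP2, MMP7, PLAU and PLAUR lower. In PA-1 cells, 4 of the 9 genes tested did not overlap, compared with 27.5% of all genes tested, 14.1% higher and 13.3% lower. MMP2, MMP15 and PLAUR were higher there, and TIMP3 was lower. The median log2 fold change of the genes tested was -0.15 in SK-OV3 and 0.13 in PA-1, beside -0.01 and -0.00 over all genes.

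**Figure D1:**
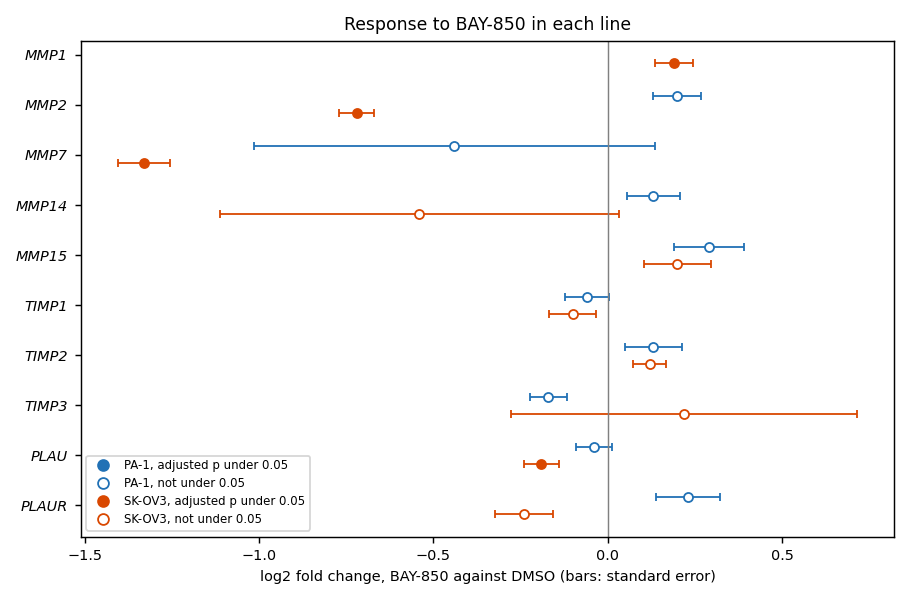
Log2 fold change of each gene under BAY-850 compared with DMSO (x axis) in PA-1 (blue) and SK-OV3 (orange), with bars for the standard error from edgeR and filled points for an adjusted p under 0.05. MMP7 (-1.33) and MMP2 (-0.72) in SK-OV3 lie farthest from 0 among the filled points, and MMP1 has no PA-1 point because it was not tested there.

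The lines themselves differed far more than the treatments. Under DMSO, 9 of the 10 genes differed between SK-OV3 and PA-1, close to the 80.3% of the 16070 genes tested that were called in that comparison (40.1% higher and 40.2% lower in SK-OV3). Likewise, 9 of the 10 did not overlap between the lines, compared with 82.3% of all genes (41.1% higher and 41.2% lower). MMP1, MMP7, TIMP2, MMP2, PLAUR and MMP15 were higher in SK-OV3, and TIMP3, MMP14 and PLAU were higher in PA-1. TIMP1 was not called (log2 difference -0.16, standard error (SE) 0.0715, adjusted p = 0.0581 from edgeR), but passed under 5 of the alternatives, among them the fit of all 12 libraries (adjusted p = 0.0457). This comparison uses the same DMSO libraries as the treatment comparisons.

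**Figure D2:**
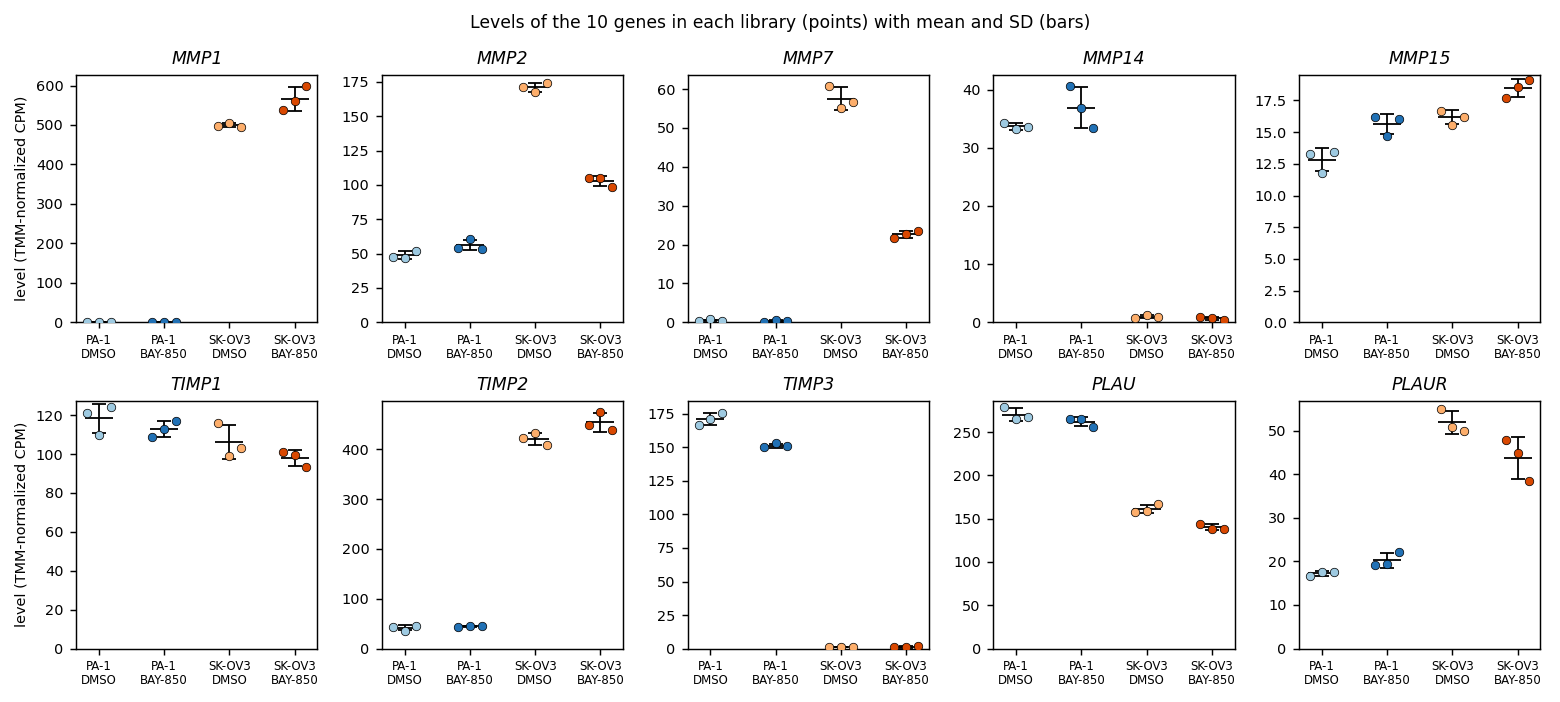
TMM-normalized CPM (y axis, from 0, a scale of its own for each gene) of the 10 genes in each of the 12 libraries (points) by group, with the mean and SD of 3 libraries as bars. MMP1 and MMP7 are near 0 in PA-1, MMP14 and TIMP3 are near 0 in SK-OV3, and the SK-OV3 points of MMP2 and MMP7 are lower under BAY-850.

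MMP1, the interstitial collagenase, was almost absent from PA-1 and among the most abundant transcripts of SK-OV3. In PA-1 it had 0.0578, 0 and 0.198 CPM under DMSO and 0, 0 and 0.237 CPM under BAY-850, a total of 9 counts in each group. In SK-OV3 it had 497, 506 and 496 CPM under DMSO and 538, 562 and 598 CPM under BAY-850. All 3 treated SK-OV3 libraries lay above all 3 controls. From the summed counts, the level under DMSO was 6380-fold higher in SK-OV3 than in PA-1 (95% interval 3360–14000, counting error only). The rise under BAY-850 in SK-OV3 was small (log2 fold change 0.19, SE 0.0536, adjusted p = 0.0255 from edgeR). It lost the call when the DMSO replicate 2, DMSO replicate 3 or BAY-850 replicate 2 library was left out (adjusted p 0.0774, 0.0950 and 0.0586 from edgeR). It also lost it when scaled by library size only (adjusted p = 0.0557) or fitted with all 12 libraries (adjusted p = 0.267). The interaction for MMP1 had an SE of 1.10 on the log2 scale, so the response in PA-1 was not measurable at this depth.

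MMP7, or matrilysin, a small MMP of epithelial cells, showed the largest fall of the 10 genes in SK-OV3. It had 60.7, 55.0 and 56.7 CPM in the SK-OV3 DMSO libraries and 21.8, 22.6 and 23.4 CPM in the BAY-850 libraries. The groups were well apart, with no treated library within 30 CPM of a control. The level fell by 1.33 on the log2 scale (SE 0.0757, adjusted p = 6.13e-07 from edgeR), to 0.397 of control. In PA-1 the gene was near the limit of detection, with 0.434, 0.710 and 0.255 CPM under DMSO and 0.170, 0.534 and 0.342 CPM under BAY-850, and these groups overlapped. Under DMSO it was 118-fold higher in SK-OV3 from the summed counts (95% interval 90.9–157, counting error only). The difference in response between the lines was not called (log2 difference -0.87, SE 0.407, adjusted p = 0.176 from edgeR), and ranged from -1.36 without PA-1 DMSO replicate 2, where it was called (adjusted p = 0.0487), to -0.42 without PA-1 BAY-850 replicate 2 (adjusted p = 0.640).

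MMP2, the gelatinase that cleaves type IV collagen and denatured collagens, had fold changes of opposite sign in the lines, and only the fall in SK-OV3 passed the test. SK-OV3 cells had 171, 168 and 174 CPM under DMSO and 105, 105 and 98.3 CPM under BAY-850. In PA-1 it had 47.7, 47.0 and 51.9 CPM under DMSO and 54.2, 60.5 and 53.6 CPM under BAY-850. Treated libraries were below every control in SK-OV3 and above every control in PA-1. It fell by 0.72 on the log2 scale in SK-OV3 (SE 0.0498, adjusted p = 2.46e-06 from edgeR). The PA-1 value did not pass (0.20, SE 0.0688, adjusted p = 0.0888 from edgeR). The responses differed by -0.94 on the log2 scale (SE 0.0855, adjusted p = 4.33e-06 from edgeR), and the treated SK-OV3 level stayed above both PA-1 groups. Without SK-OV3 BAY-850 replicate 3, the SK-OV3 value was -0.71 for MMP2 and -1.37 for MMP7.

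The sum of 7 fibroblast markers, mostly COL1A1, fell beside MMP2 in SK-OV3. It was 182–192 CPM under DMSO and 89.2–118 CPM under BAY-850. COL1A1 alone had a mean of 168 CPM under DMSO and 97.6 CPM under BAY-850. Of the 6 markers tested, 3 fell (COL1A1, COL1A2 and LUM, named after their values were seen). DCN had 1 count in all under DMSO and 0 under BAY-850, so it was near 0 in both groups. The epithelial sum also fell, from 4130–4440 to 2900–3370 CPM, with 4 of 8 markers called lower and 0 called higher. ERBB2 alone had a mean of 2420 CPM under DMSO and 1780 CPM under BAY-850 there. The sum of 6 immune cell markers went the other way there, from 28.9–29.3 to 37.6–40.6 CPM, with 1 of 3 tested called higher. Beside these lists, 9.56% of all genes tested in SK-OV3 were called lower and 10.8% higher. In PA-1 the fibroblast sum was 478–590 CPM under DMSO and 620–667 CPM under BAY-850. COL1A1, with means of 462 and 581 CPM, made up most of this sum too. It alone of 5 tested was called there, as higher, beside 4.65% of all genes tested. The part of these markers in the MMP results was not tested.

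MMP14 and MMP15 are membrane-type MMPs anchored at the cell surface. MMP14 had 34.3, 33.2 and 33.6 CPM in PA-1 with DMSO and 40.6, 36.8 and 33.4 CPM under BAY-850, and these groups overlapped. The SK-OV3 libraries had 0.780, 1.22 and 0.881 CPM under DMSO and 0.984, 0.663 and 0.335 CPM under BAY-850, also with overlap. From the summed counts it was 35.2-fold higher in PA-1 under DMSO (95% interval 29.2–42.9, counting error only). No response passed in either line, at 0.13 on the log2 scale for PA-1 (SE 0.0761, adjusted p = 0.312 from edgeR) and -0.54 for SK-OV3 (SE 0.573, adjusted p = 0.561). The SK-OV3 value rests on 111 and 86 summed counts, and was -0.32 without DMSO replicate 2, -0.93 without BAY-850 replicate 1 and -0.22 without BAY-850 replicate 3. The difference between the lines in response (-0.71, adjusted p = 0.171 from edgeR) was called without SK-OV3 BAY-850 replicate 1 (-1.10, adjusted p = 0.0278) and was -0.35 without BAY-850 replicate 3 (adjusted p = 0.406).

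MMP15 had the most even level of the 5 MMP genes, from 11.8 CPM in a PA-1 DMSO library to 19.1 CPM in an SK-OV3 BAY-850 library. In PA-1 it had 13.3, 11.8 and 13.4 CPM under DMSO and 16.2, 14.7 and 16.0 CPM under BAY-850. In SK-OV3 it had 16.7, 15.6 and 16.2 CPM under DMSO and 17.7, 18.6 and 19.1 CPM under BAY-850. Treated libraries lay above controls in both lines, yet neither log2 fold change passed (PA-1 0.29, adjusted p = 0.0973, and SK-OV3 0.20, adjusted p = 0.166, from edgeR). Under DMSO it was 0.33 higher in SK-OV3 on the log2 scale (adjusted p = 0.0105 from edgeR).

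Of the inhibitors, TIMP1, a secreted inhibitor of many MMPs, varied least of the 10 genes across the groups. It had 121, 110 and 124 CPM in PA-1 with DMSO, 109, 113 and 117 CPM in PA-1 with BAY-850, 116, 99.1 and 103 CPM in SK-OV3 with DMSO and 101, 99.5 and 93.1 CPM in SK-OV3 with BAY-850. Each group overlapped its neighbour in the order of means, and the highest group mean was 1.21 times the lowest. The log2 fold change was -0.06 in PA-1 (SE 0.0623, adjusted p = 0.634 from edgeR) and -0.10 in SK-OV3 (SE 0.0672, adjusted p = 0.319).

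TIMP2, the inhibitor that also takes part in MMP2 activation, had 42.8, 35.8 and 45.6 CPM in PA-1 with DMSO and 43.9, 45.9 and 45.5 CPM under BAY-850. SK-OV3 cells had 422, 432 and 408 CPM under DMSO and 449, 475 and 438 CPM under BAY-850. The SK-OV3 groups did not overlap and the PA-1 groups did. The difference under DMSO was 3.35 on the log2 scale in favour of SK-OV3 (SE 0.0827, adjusted p = 1.28e-12 from edgeR). BAY-850 gave 0.13 in PA-1 (adjusted p = 0.370 from edgeR) and 0.12 in SK-OV3 (adjusted p = 0.0916), and DESeq2 called the latter (adjusted p = 0.0438).

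TIMP3, an inhibitor held in the matrix that also blocks ADAM17, was a PA-1 gene. It had 167, 171 and 176 CPM in PA-1 with DMSO and 150, 153 and 151 CPM under BAY-850. In SK-OV3 it had 1.13, 1.03 and 1.19 CPM under DMSO and 0.787, 0.853 and 2.18 CPM under BAY-850. The PA-1 groups did not overlap, while in SK-OV3 the third treated library stood above all others and the remaining pair below. From the summed counts it was 153-fold higher in PA-1 under DMSO (95% interval 129–183, counting error only). The PA-1 value was -0.17 (SE 0.0530, adjusted p = 0.0608 from edgeR). DESeq2 called it (adjusted p = 0.00847), as did the fit with at least 10 counts in every library and the fit with the GC trend removed (adjusted p 0.0475 and 0.0438 from edgeR). The SK-OV3 value changed sign without BAY-850 replicate 3, from 0.22 to -0.45, and was called in neither fit (adjusted p 0.806 and 0.457 from edgeR). That library held 117 of the 185 counts of its group.

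PLAU, the urokinase enzyme, was abundant in both lines. It had 279, 265 and 267 CPM in PA-1 with DMSO and 265, 265 and 256 CPM under BAY-850. In SK-OV3 it had 158, 159 and 167 CPM under DMSO and 144, 138 and 138 CPM under BAY-850. The SK-OV3 groups did not overlap and the PA-1 groups did. The fall in SK-OV3 was small (log2 fold change -0.19, SE 0.0510, adjusted p = 0.0205 from edgeR), and the PA-1 value was -0.04 (SE 0.0518, adjusted p = 0.662). The SK-OV3 call was lost without DMSO replicate 2, DMSO replicate 3 or BAY-850 replicate 2 (adjusted p 0.0734, 0.106 and 0.101 from edgeR) and with library size only (adjusted p = 0.0615). The interaction was not called by edgeR (-0.16, adjusted p = 0.115) and was called by DESeq2 (-0.15, adjusted p = 0.0451).

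PLAUR, the receptor that holds urokinase at the cell surface, differed between the lines in its response. It had 16.6, 17.6 and 17.6 CPM in PA-1 with DMSO and 19.1, 19.4 and 22.2 CPM under BAY-850. The SK-OV3 libraries had 54.9, 50.8 and 49.9 CPM under DMSO and 47.8, 44.8 and 38.4 CPM under BAY-850. Treated libraries were above every control in PA-1 and below every control in SK-OV3. Neither line passed alone, with 0.23 in PA-1 (SE 0.0914, adjusted p = 0.143 from edgeR) and -0.24 in SK-OV3 (SE 0.0830, adjusted p = 0.0653). The difference between them passed (-0.48, SE 0.126, adjusted p = 0.0191 from edgeR). It missed the threshold without PA-1 DMSO replicate 1 or PA-1 BAY-850 replicate 3 (adjusted p 0.0504 and 0.0506 from edgeR). The SK-OV3 value was called by DESeq2 (adjusted p = 0.0443), without a filter on low counts (0.0419), with at least 10 counts in every library (0.0479), with the GC trend removed (0.0230) and without BAY-850 replicate 1 (0.0464), all but the first from edgeR, and was -0.16 without BAY-850 replicate 3 (adjusted p = 0.118 from edgeR).

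Levels can be compared between genes only per length, and CPM per kilobase of merged exon length was used for this. In PA-1 with DMSO the order was led by PLAU (91.7 ± 2.45 CPM per kilobase, SD, n = 3), TIMP1 (76.7 ± 4.96), TIMP3 (37.2 ± 0.926) and MMP2 (9.90 ± 0.534). With the length of the longest transcript, an alternative chosen after seeing the data, TIMP1 came before PLAU. In SK-OV3 with DMSO it was led by MMP1 (254 ± 2.93 CPM per kilobase), TIMP2 (74.7 ± 2.12), TIMP1 (68.8 ± 5.67), PLAU (54.7 ± 1.75) and MMP2 (34.7 ± 0.607). MMP1 stood at percentile 99.6 of 15716 genes in SK-OV3 and PLAU at percentile 97.9 in PA-1. With BAY-850 PLAUR (9.80 ± 1.08) and MMP7 (9.72 ± 0.323) came to like levels per kilobase in SK-OV3, from 11.6 ± 0.604 and 24.7 ± 1.28 with DMSO.

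Summed per kilobase, the 5 MMP genes came to 0.170 ± 0.00358 of the 3 TIMP genes in PA-1 with DMSO and 0.204 ± 0.0128 with BAY-850. In SK-OV3 this ratio was 2.21 ± 0.0863 with DMSO and 2.23 ± 0.177 with BAY-850, so it differed by less than its spread. The SK-OV3 sum is mostly MMP1, whose share of the 10-gene sum was 48.1% ± 0.822 with DMSO and 54.8% ± 1.99 with BAY-850. The shares of MMP7 and MMP2 were 4.69% ± 0.202 and 6.58% ± 0.148 with DMSO, and 1.86% ± 0.0298 and 3.98% ± 0.203 with BAY-850. PA-1 was made up mainly of PLAU (38.6% ± 1.14 with DMSO), TIMP1 (32.3% ± 1.06) and TIMP3 (15.7% ± 0.578).

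**Figure D3:**
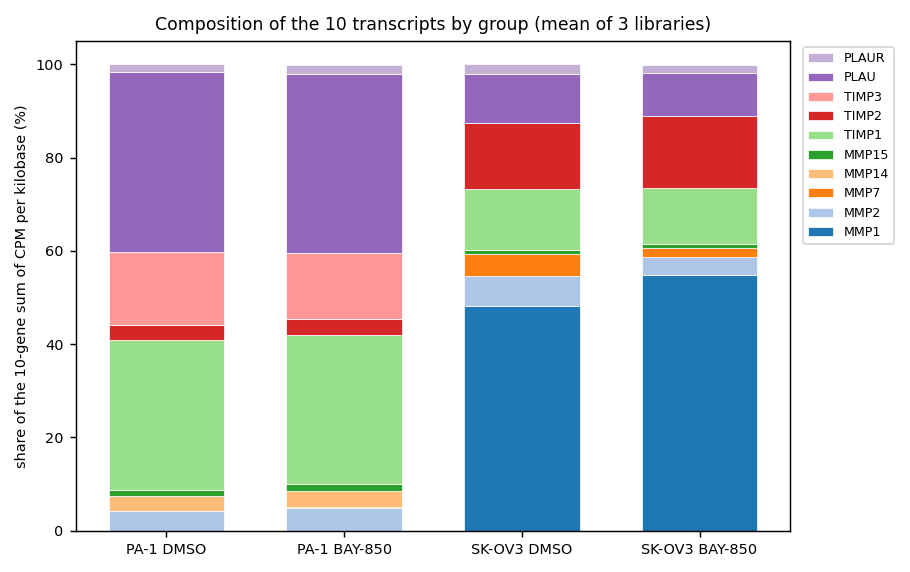
Share of the 10-gene sum of CPM per kilobase (y axis, percent) taken by each gene in the 4 groups, as the mean of 3 libraries. PLAU and TIMP1 fill most of the PA-1 bars and MMP1 about as much as all the others together in the SK-OV3 bars, where its share is 48.1% with DMSO and 54.8% with BAY-850.

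Ratios of enzyme to partner followed from these levels and are given as a description. MMP2 to TIMP2 was 0.465 ± 0.0214 in SK-OV3 with DMSO and 0.258 ± 0.00699 with BAY-850, with no overlap. In PA-1 it was 1.36 ± 0.124 and 1.42 ± 0.0802, with overlap. MMP14 to TIMP2 was 1.04 ± 0.122 in PA-1 with DMSO and 0.00287 ± 0.000625 in SK-OV3 with DMSO, so SK-OV3 held MMP2 and TIMP2 transcripts with little of the MMP14 transcript. PLAU to PLAUR was 23.7 ± 1.48 and 19.7 ± 1.97 in PA-1 with DMSO and BAY-850, without overlap, and 4.71 ± 0.364 and 4.88 ± 0.487 in SK-OV3, with overlap. MMP1 to TIMP1 in SK-OV3 was 3.70 ± 0.326 with DMSO and 4.53 ± 0.444 with BAY-850.

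**Figure D4:**
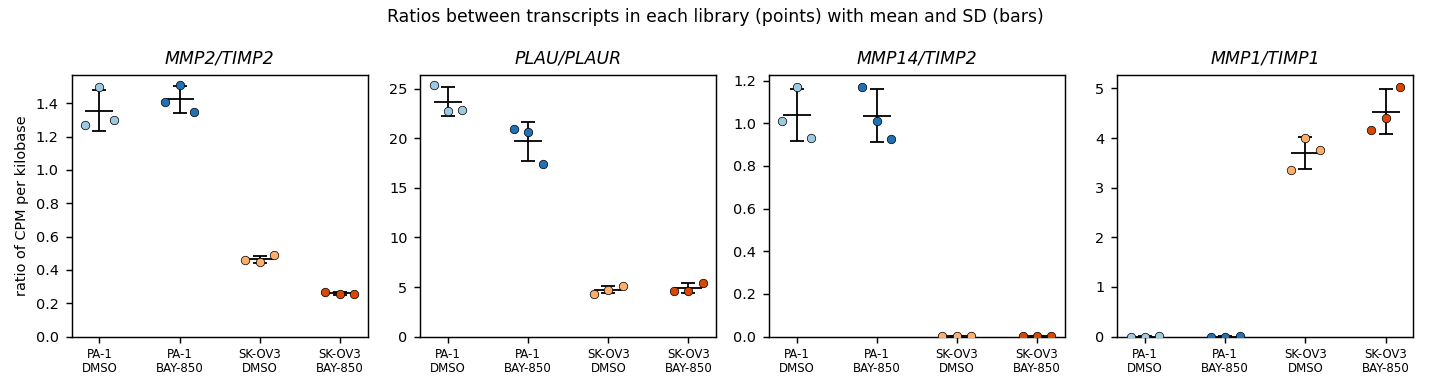
Ratios of CPM per kilobase (y axis, from 0) between pairs of transcripts in each library (points) by group, with the mean and SD of 3 libraries as bars. The mean of MMP2 to TIMP2 goes from 0.465 to 0.258 in SK-OV3, the PLAU to PLAUR points of PA-1 lie lower under BAY-850, and MMP14 to TIMP2 is near 0 in SK-OV3.

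Of 16 plasminogen activation partners and inhibitors, 13 were tested in each line. In SK-OV3, 3 were called, all as higher, beside 20.4% of all genes tested (10.8% as higher). At an unadjusted p under 0.05 there were 6, beside 33.3% of all genes tested. PLAT, the tissue plasminogen activator, rose in SK-OV3 from 27.7 ± 0.697 to 66.1 ± 5.60 CPM (log2 fold change 1.27, SE 0.0742, adjusted p = 7.39e-07 from edgeR). Its response differed between the lines by 1.23 on the log2 scale (adjusted p = 1.94e-07 from edgeR). The others were the clearance receptor LRP1 (0.39) and the collagen receptor MRC2 (0.23). In PA-1, 2 rose, LRP1 (log2 fold change 0.49, adjusted p = 0.00227 from edgeR) and IGF2R (0.40, adjusted p = 0.0152 from edgeR), and 0 fell. IGF2R lost its call when PA-1 DMSO replicate 1, DMSO replicate 2 or BAY-850 replicate 2 was left out, with adjusted p from edgeR of 0.0785, 0.102 and 0.0923, and with library size only (0.0998). In PA-1, 7.13% of all genes tested were called. The list median was -0.07 in SK-OV3 and 0.02 in PA-1, beside -0.01 and -0.00 over all genes.

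Of 15 activators and pericellular regulators of MMPs, 14 were tested in SK-OV3, 5 fell and 2 rose. Over all genes tested there, 9.56% were called lower and 10.8% higher. THBS1, thrombospondin-1, a matrix protein that binds MMP2, fell from 351 ± 24.7 to 120 ± 11.6 CPM (log2 fold change -1.53, adjusted p = 1.05e-07 from edgeR). ITGAV, the integrin alpha V chain, fell by 0.58 and its partner ITGB3 rose by 0.69 on the log2 scale. PCSK5, a proprotein convertase, rose by 0.35 and lost the call without SK-OV3 DMSO replicate 1 or 2 and with all 12 libraries in one fit (adjusted p 0.0511, 0.0735 and 0.0725 from edgeR). In PA-1, 15 were tested and 0 were called by edgeR, with 3 at an unadjusted p under 0.05. The shares of all genes tested were 7.13% and 23.8%. The list median was -0.20 in SK-OV3 and 0.02 in PA-1, beside -0.01 and -0.00 over all genes.

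MMP1 and MMP7 lie in the MMP gene cluster on chromosome 11. In GRCh38, MMP7 spans 102520508 to 102530753 and MMP1 102789920 to 102798160, both on the minus strand, with 259166 bases between them. MMP10, stromelysin-2, is the nearest cluster gene before MMP1, 9291 bases away. It was 32.1 ± 2.32 CPM in SK-OV3 with DMSO and 19.7 ± 1.51 CPM under BAY-850, and fell by 0.69 on the log2 scale (SE 0.0897, adjusted p = 0.000288 from edgeR), while MMP1 rose. MMP13, collagenase-3, had 4.51 ± 0.768 and 3.30 ± 0.255 CPM in SK-OV3 and was not called (adjusted p = 0.186 from edgeR). MMP3, stromelysin-1, had 0.557 ± 0.154 and 0.846 ± 0.671 CPM there and was listed at 0 in all 6 PA-1 libraries. MMP8, MMP12, MMP20 and MMP27 were at or under 0.337 CPM in every library.

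**Figure D5:**
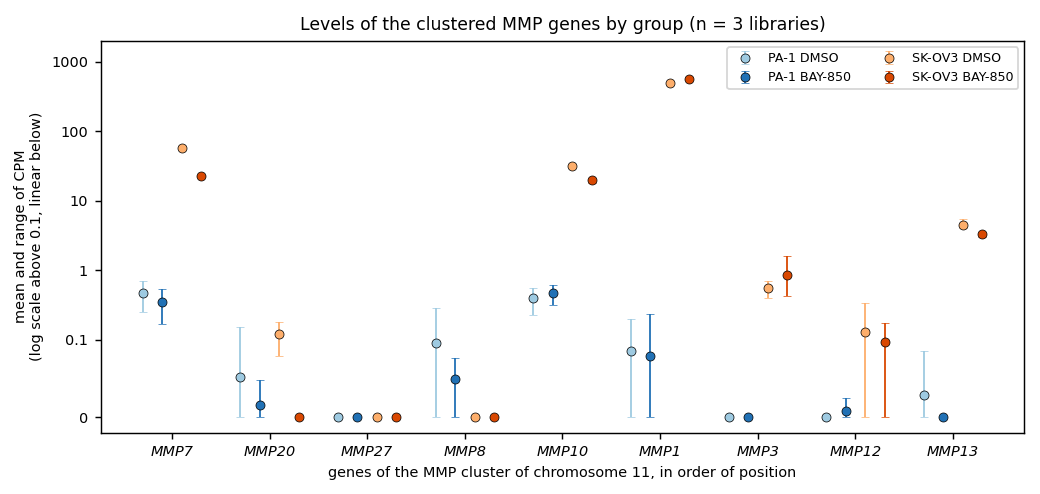
Mean CPM (y axis, log scale above 0.1 and linear below) of the 9 MMP genes of the chromosome 11 cluster in order of position, with bars from the lowest to the highest of 3 libraries in each group. The means of MMP1, MMP7, MMP10 and MMP13 exceed 1 CPM in SK-OV3, and no gene of the cluster does in PA-1. The MMP3 bar reaches 1.62 CPM in SK-OV3 with BAY-850, where the median library had 0.492 CPM.

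Of 19 other MMP and TIMP genes, 10 were tested in each line. By comparison, 20.4% of all genes tested were called in SK-OV3 and 7.13% in PA-1, with medians of -0.01 and -0.00. In SK-OV3, 2 fell, MMP10 and MMP24 (from 9.83 ± 0.697 to 4.88 ± 0.801 CPM, adjusted p = 0.00131 from edgeR), and 0 rose, with a list median of -0.45. In PA-1, MMP19 alone was called, with a level of 46.7 ± 2.76 CPM under DMSO and 38.7 ± 1.78 CPM under BAY-850 (log2 fold change -0.27, adjusted p = 0.0294 from edgeR), and the list median was 0.21. MMP19 lost its call when any PA-1 library other than DMSO replicate 2 was left out (adjusted p 0.0541 to 0.101 from edgeR), with library size only (0.0667) and with all 12 libraries (0.251). Between the lines under DMSO, 13 were tested, 7 were higher in SK-OV3 and 5 in PA-1, beside 40.1% and 40.2% of all genes tested. MMP19 had 46.7 CPM in PA-1 and 0.978 CPM in SK-OV3.

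Neighbouring genes overlap some of these genes in position. PLAU, at chromosome 10 from 73909177 to 73917497 on the plus strand, shares 916 exon bases with C10orf55 on the other strand, and RSEM gave both fractional counts in every library. C10orf55 had 1.17 to 94.24 counts a library and PLAU 5811.55 to 11964.61, so the division touches few of the PLAU counts. TIMP1 lies inside an intron of SYN1 on X, and TIMP3 (chromosome 22, 32801701 to 32863043) within SYN3, both with 0 shared exon bases. TIMP2 (chromosome 17, 78852977 to 78925387) shares 198 exon bases with CEP295NL, which had at most 34 counts, and 367 with AC022966.1 on the other strand. MMP1 shares 150 exon bases with WTAPP1 (at most 22 counts) and MMP2 shares 174 with AC007336.3. Among the 10 genes, PLAU alone had fractional counts. The strand setting of the counting is not given in the sources used here, so reads of genes on opposite strands cannot be told apart.

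The genes whose pattern was most like that of each member were found from the Pearson correlation of log2 CPM centred within each line, over 12 libraries and 14092 genes with a mean of at least 1 CPM. For MMP2 they were FBLN2 (r = 0.977) and FOXM1 (0.976), and for MMP7 AKR1C1 (0.933) and CLCC1 (0.918). For MMP1 they were MICALCL (0.939) and RELL1 (0.895), for PLAU FRMD6 (0.965) and ADAMTS6 (0.960), for PLAUR XRCC3 (0.953) and RNF26 (0.934), and for TIMP3 CD74 (0.974) and CNTNAP2 (0.954). The points share libraries and depth, so these values describe likeness only. For TIMP3, SK-OV3 BAY-850 replicate 3 held 117 of the 185 counts of its group, and r was not computed without that library. In the PA-1 libraries, MMP1 had 0 to 9 counts and MMP7 had 7 to 32. The r values of these genes thus rest partly on few counts, and r was not computed in SK-OV3 alone.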

How the data were processed

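RNA was measured in 12 libraries, 3 biological replicates for each line and treatment. The values the authors deposited are expected counts for each symbol, made with RSEM 1.2.15 with Bowtie2 2.1.0 on hg38, per the submitters' processing notes, without normalization between libraries. The annotation and strand setting are not given in the sources used here. The extract protocol names oligo-dT beads and strand-marked libraries, while the series' design text names ribosomal RNA depletion. Replicates are taken from the labels, and p-values set each difference against the spread between these samples.

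Expected counts were rounded and tested with edgeR 4.0.16 (R 4.3.3) by its quasi-likelihood test, with TMM factors and edgeR's filter on low counts. Adjusted p-values follow Benjamini and Hochberg across all genes tested, and a gene was called at an adjusted p under 0.05. Each line was fitted alone, all 12 libraries together for the interaction, and the 6 DMSO libraries for the lines. The standard error is the size of the log2 fold change over the square root of F. Levels are TMM-normalized CPM over all 12 libraries. Intervals of folds from summed counts are 95% and cover counting error only. Positions and lengths are from GENCODE v29 (GRCh38). The gene lists, the members and the tests were chosen with earlier results of these data known. The genes named are the 10 members and genes picked by rule. The rule took the called genes of each further list with the largest changes (at most 4 for each comparison) and the 2 genes most like each member. Not every gene picked this way is named, mainly in the interaction and between the lines. The genes most like MMP14, MMP15, TIMP1 and TIMP2 are also left out. A further gene and the results that need it are not reported here. Beside these, MMP13, MMP3, MMP8, MMP12, MMP20 and MMP27 are named for their place in the gene cluster, and 4 fibroblast markers for their levels beside MMP2. ERBB2 and KRT18 are named for their part in the epithelial markers, after their values were seen.

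The alternatives were DESeq2 1.42.0, RLE factors, library size only, no filter on low counts, a minimum of 10 counts per library, a block for the replicate number, removal of each library's trend on GC content (loess span 0.5), all 12 libraries in one fit and leaving out each library. The code was tested on simulated counts. Library totals of 34544505 to 51840233 leave levels under 1 CPM on few counts.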

Additional observations from a re-analysis of the deposited data

Results flagged for a closer look

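The response to BAY-850 differed between PA-1 and SK-OV3 for MMP2, by -0.94 on the log2 scale (standard error 0.0855, adjusted p = 4.33e-06 from edgeR's interaction test). The 3 treated libraries were above the 3 controls in PA-1 and below them in SK-OV3. The response also differed for PLAUR, by -0.48 (standard error 0.126, adjusted p = 0.0191 from edgeR), with the same pattern of libraries. For PLAUR neither line passed alone (adjusted p 0.143 in PA-1 and 0.0653 in SK-OV3 from edgeR). Its interaction call was lost without PA-1 DMSO replicate 1 or PA-1 BAY-850 replicate 3. What lies behind either difference was not tested.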

How the results depend on the processing

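The calls of MMP7 and MMP2 in SK-OV3 and of MMP2 in the interaction held under every alternative run. Of 590 comparisons of a member's value under an alternative with the reported one, 548 kept direction and side of the threshold, 17 passed it newly, 11 lost it and 14 changed sign. Of 244 counts of calls, 214 stayed within 1.5 times. The cause of the changes was not tested.

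In PA-1, 707 genes were higher and 378 lower. DESeq2 called 622 lower, and no filter 588 lower. Scaling by library size only called 235 higher and 231 lower, so the split moved from mostly higher to nearly even. Removing the GC trend called 387 higher and 166 lower, and the fit of all 12 libraries 469 and 214. Of the members, 1 (TIMP3) was called lower under DESeq2, the filter of at least 10 counts and the GC correction. The GC correction took MMP15 in PA-1 from 0.29 to 0.15 and MMP2 from 0.20 to 0.12. In SK-OV3, members called higher were 2 under DESeq2 and 0 under library size only and under all 12 libraries. In the interaction, library size only called 773 genes lower.

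Leaving out each library in turn gave 273 to 810 genes higher and 65 to 418 lower in PA-1, with 0 members called. In SK-OV3 it gave 993 to 2050 higher and 788 to 1852 lower, with 0 to 1 members higher and 2 to 4 lower. In the interaction it gave 826 to 1287 higher and 960 to 1320 lower, with 1 to 3 members lower.

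Values that changed sign were called in neither fit. Leaving out each library gave -0.87 to 0.0172 for MMP7 in PA-1 (positive without PA-1 DMSO replicate 2) and -0.45 to 0.47 for TIMP3 in SK-OV3 (negative without SK-OV3 BAY-850 replicate 3). In the interaction it gave -0.0879 to 0.0796 for TIMP2, -0.10 to 0.00868 for TIMP1, -1.30 to 4.91 for MMP1 and -0.27 to 0.69 for TIMP3. The TIMP2 interaction was 0.0298 with library size only and 0.0584 with the GC correction, and that of TIMP1 was 0.0182 with the GC correction. Under DMSO, TIMP1 passed between the lines without PA-1 DMSO replicate 2 (adjusted p = 0.0258 from edgeR) or SK-OV3 DMSO replicate 1 (0.00747), with the GC correction (0.00948) and with all 12 libraries (0.0457). By the longest transcript length, chosen after seeing the data, the log2 of PLAU over TIMP1 in PA-1 went from 0.26 to -0.08 with DMSO and from 0.27 to -0.07 with BAY-850.

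Replicate numbers are shared between groups. Deviations of same-numbered libraries correlated by 0.02, 0.01 and -0.08 in PA-1 and 0.01, -0.01 and 0.04 in SK-OV3. Differently numbered PA-1 libraries gave -0.12 to 0.11. No shared effect of the number was seen, but this check cannot tell whether samples were handled in pairs. With the replicate number as a block, 624 genes were higher and 307 lower in PA-1 and 1449 and 1267 in SK-OV3, and the members called stayed at 0 in PA-1 and 4 in SK-OV3. The block added TIMP1 between the lines (adjusted p = 0.0158 from edgeR). Depth limits MMP1 and MMP7 in PA-1 and MMP14 and TIMP3 in SK-OV3, all under 2.5 CPM.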

Other observations

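Further protease and transcription factor genes changed in SK-OV3. Over all genes tested, 20.4% were called in SK-OV3 (10.8% higher and 9.56% lower) and 7.13% in PA-1. Of 14 ADAM and ADAMTS proteases, which shed surface proteins or cut matrix proteoglycans, 12 were tested and 3 fell, ADAMTS15 (log2 fold change -0.68), ADAM19 (-0.66) and ADAM12 (-0.31), while ADAM17, the sheddase of TNF, rose (0.33). ADAM12 lost its call without SK-OV3 DMSO replicate 2, DMSO replicate 3 or BAY-850 replicate 1, and ADAM17 without BAY-850 replicate 2 (adjusted p 0.0501, 0.0764, 0.0511 and 0.0519 from edgeR), and both with all 12 libraries in one fit (0.0899 and 0.0647). In PA-1, ADAM15 alone was called (0.38, adjusted p = 0.0116 from edgeR), and not without DMSO replicate 2 (0.0749), with the GC trend removed (0.0748) or with all 12 libraries in one fit (0.0662).

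Of 15 AP-1 and ETS transcription factors, all 15 were tested in each line. By comparison, 20.4% of all genes tested were called in SK-OV3 and 7.13% in PA-1. In SK-OV3, 3 fell and 3 rose. FOSB fell from 66.5 ± 2.03 to 2.32 ± 0.467 CPM, FOS from 159 ± 6.03 to 36.7 ± 0.940 CPM and JUNB by 0.45 on the log2 scale, while FOSL2 had the largest rise, of 0.58. In PA-1, ELF3 (0.80), FOSL2 (0.48) and FOSL1 (0.30) rose and FOS fell (-0.25). FOSL1 and FOS lost their calls in PA-1 without DMSO replicate 2 or BAY-850 replicate 2 (adjusted p 0.0592 to 0.103 from edgeR), and FOSL1 also with library size only (0.0764) and with the GC trend removed (0.0766). FOSL2 rose in both lines, from 98.5 ± 5.20 to 137 ± 3.65 CPM in PA-1 and from 136 ± 7.71 to 202 ± 19.9 CPM in SK-OV3.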
